A study of Bombus terrestris audax with 20 samples.

Results

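P17/29C-like is a protein-coding gene of the bumblebee Bombus terrestris, and 1 of 14817 features in a table of mRNA abundance in larvae developing into queens or workers. It was chosen by rule as the feature with the largest offset fold change in mid-instar worker-destined larvae, that is, the log2 ratio between the lowest worker-destined and the highest queen-destined library after adding 20 to both. The table does not pair this row with a name. The name rests on this rule, by which the study also names the gene, and on gene order. The nearest named feature before the row, LOC100646069, also lies close before LOC100646188 in RefSeq, with the coding gene LOC100645956 between them. LOC100646188 is the gene of the transcript to which the study's primers were designed. Abundances of the mid stage therefore chose the gene, and its values at that stage are described here without a test. Its identifier in the table, NC_015772.1_3820761_3823080, gives the sequence, the first base and the last base in the assembly Bter_1.0, a span of 2320 bp including any introns. The files give neither its strand nor its exons.

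Libraries of whole female larvae of Bombus terrestris audax fell into 6 phenotypes. Early-instar queen-destined (EQ) and worker-destined (EW) larvae were in the first or second instar, mid-instar larvae (MQ and MW) in the third, and late-instar larvae (LQ and LW) in the fourth. Queen-destined larvae came from 4 queenless colonies and worker-destined larvae from 3 queenright colonies, so caste fate and the presence of a queen cannot be told apart. Each library pooled larvae of 1 colony. MW had 2 libraries and each of the other phenotypes 3, 17 in all. Most colonies gave libraries at several stages. Adjusted p-values set a difference against the spread between these libraries. The main model treats libraries of 1 colony as independent.

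In bumblebees, queens and workers develop from the same kind of fertilised egg, and the fate of a female larva depends on its rearing conditions, among them the queen's presence during early larval life. The last larval instar feeds heavily, stores protein and fat and then spins a silk cocoon before pupation. P17/29C-like takes its name from an uncharacterised protein of the slime mould Dictyostelium, and no role for it in bees is given in the sources used here. The study designed a primer pair for quantitative PCR of its transcript, given here because these oligonucleotides identify the transcript. The study also ran quantitative PCR of its target genes on single larvae from other colonies, which is not reported here. Both primers were 21 bases long and had 12 G or C bases (57.1%). The capitals mark the last 5 bases at the 3′ end, from which the polymerase extends.
forward primer: agccagaaaggaagcgGATGC
reverse primer: tggctccgtcgattttCGAGC

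P17/29C-like was scarce in early larvae of both castes, abundant in late larvae of both castes, and at the mid stage already abundant in worker-destined larvae only. Values are normalised abundances, which the authors corrected for feature length and quantile-normalised, so that every library had a median close to 118. Abundance was 47.2, 10.9 and 16.0 in EQ libraries and 17.1, 28.5 and 38.9 in EW libraries. At the mid stage it was 32.6, 25.6 and 188 in MQ1, MQ2 and MQ4, and 3694 and 3162 in MW2 and MW3. Both MW libraries stood above every MQ library, and MQ4 stood above the other MQ libraries. In the late stage abundance was 11295, 26511 and 20899 in LQ1, LQ2 and LQ4, and 9570, 42070 and 29399 in LW1, LW2 and LW3. The late ranges of the castes overlapped, and each late library stood above each MW library. In whole larvae, fewer cells of a type and less RNA per cell cannot be told apart.

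**Figure D1:**
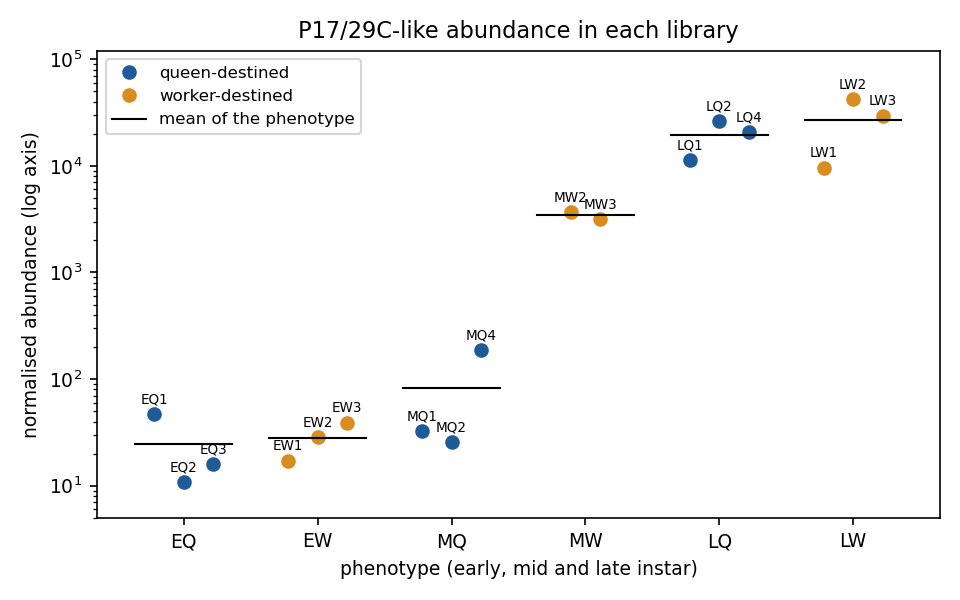
Normalised abundance of P17/29C-like (log axis) in each library of the 6 phenotypes; points are libraries and black lines are phenotype means. All early and MQ libraries lie at or below 188, the MW libraries at 3162 and 3694, and the late libraries between 9570 and 42070.

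Ordered by mean, the phenotypes ran EQ, EW, MQ, MW, LQ and LW. The means were 24.7 ± 19.7 in EQ, 28.2 ± 10.9 in EW and 82.0 ± 91.7 in MQ (SD, n = 3 each). They were 3428 ± 376 in MW (SD, n = 2), and 19568 ± 7695 in LQ and 27013 ± 16381 in LW (SD, n = 3 each). The authors left out MW1 because it was unlike its replicates, so the MW spread shown can be too small. Neighbours in this order had overlapping ranges for EQ and EW, for MQ and EW, and for LQ and LW. The ranges of MQ and MW did not overlap, and neither did those of LQ and MW, whose nearest libraries differed 3.06-fold. Libraries of LW spread most widely among the abundant phenotypes, with a coefficient of variation of 60.6% and a highest library 4.40 times the lowest. In LQ the coefficient was 39.3%, and in MQ it was 112% because of MQ4.

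The position of the gene within each library moved accordingly. Ranked from the most abundant feature, P17/29C-like was between place 10390 and place 13140 of 14817 in the early libraries, and at 11301, 11823 and 5581 in MQ1, MQ2 and MQ4. It was at 344 and 404 in MW2 and MW3. In late libraries it was at 125, 44 and 58 in LQ1, LQ2 and LQ4, and at 145, 28 and 39 in LW1, LW2 and LW3. The gene was thus below the median feature in every early library and in MQ1 and MQ2, and among the most abundant features per length in every late library of both castes.

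The mid-stage caste difference was the one that selected the gene. Mean abundance in MQ was 2.39% of that in MW, a difference of -5.44 on the log2(abundance + 20) scale for MQ minus MW, and the nearest libraries of the castes differed 16.8-fold. The offset fold change, which was computed for MW over MQ, was 3.94. An offset fold change over 1 in MW was found for 94 features, 0.634% of the table. MW ranges lay wholly above MQ ranges for 17.4% of all features. The features next to P17/29C-like in this order were 2 unannotated transcripts, uNW_003566109.1_182735_182941 with 3.47 and uNW_003566532.1_6054_6308 with 3.23. Unlike P17/29C-like, both had their highest mean in MW. For the first of them the mean was 346 in MW, against 21.5 in LQ and 139 in LW.

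Among the 94 features chosen by the same threshold, 61 had their highest mean in MW and 11, P17/29C-like among them, in LW. Of all 14817 features, 1857 had their highest mean in MW and 1707 in LW. A threshold on MW favours a highest mean there, and the count for LW is near the share of the table. In 13 of the 94 (13.8%) both late means exceeded the MW mean, which exceeded the MQ mean. This order held for 10.9% of all features. A stricter order, with every late library above every mid library, both MW libraries above every MQ library and both above every early library, held for 5 of the 94 and for 0.938% of the table (139 features). Both orders include the MW over MQ difference that chose the 94, which the table as a whole was not chosen for. The shares of the 94 and of the table are therefore not comparable, and the counts are descriptions.

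Neither early nor late larvae showed a caste difference in P17/29C-like beyond the spread of the libraries. In limma, a linear model fitted to all features, EQ minus EW was -0.17 on the log2(abundance + 20) scale (SE 0.60, 95% interval -1.46 to 1.12, adjusted p = 0.986). In that comparison 0.00675% of features, a single one, were called. Late larvae gave an LQ minus LW difference of -0.31 (SE 0.60, 95% interval -1.60 to 0.99, limma adjusted p = 0.81), where 4.55% of features were called. With weights estimated for each library it was -1.16 (limma adjusted p = 0.113). Exact two-sided permutation tests on 3 libraries against 3, which cannot go below p = 0.1, gave 0.7 both for EQ against EW and for LQ against LW. The late interval reaches a difference of -1.60, so a caste difference of that size in late larvae was within the error of these libraries.

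**Figure D2:**
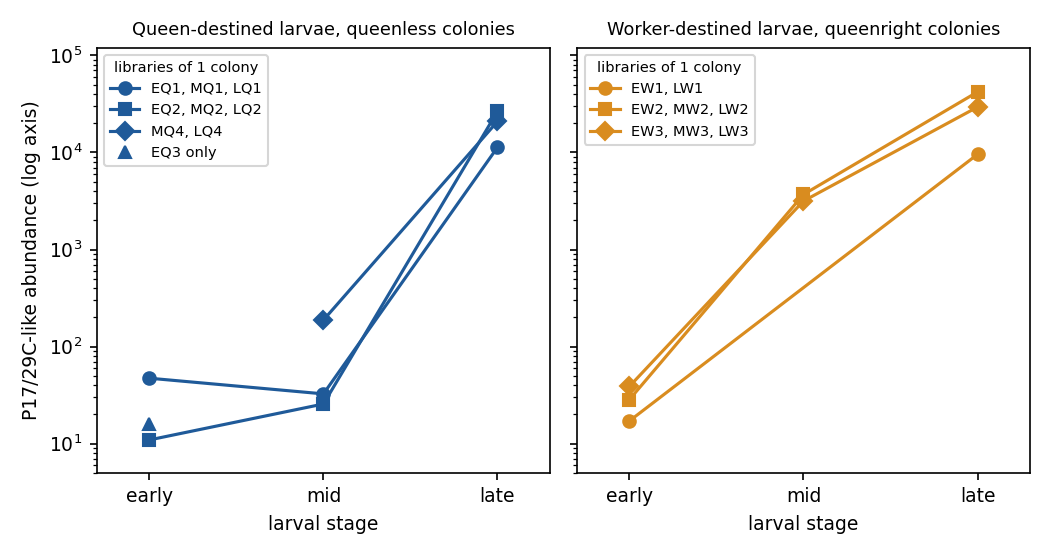
Abundance of P17/29C-like (log axis) by larval stage, with libraries of 1 colony joined; queen-destined larvae on the left, worker-destined on the right. In the worker-destined colonies sampled at all stages most of the log-scale increase lies before the mid stage, and in the queen-destined colonies after it. The gene was chosen by its mid-stage values, so this order is a description.

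Both castes showed a very large increase between the early and the late stage. Mean abundance in LQ was 792 times that in EQ, and the nearest libraries differed 239-fold. In limma, LQ minus EQ was 8.77 on the log2(abundance + 20) scale (SE 0.60, 95% interval 7.48 to 10.07, adjusted p = 2.39e-07), the second largest increase of all features. Features higher in LQ made up 29.8% of the table in this comparison. Mean abundance in LW was 959 times that in EW, with 246-fold between the nearest libraries. LW minus EW was 8.91 (SE 0.60, 95% interval 7.62 to 10.21, limma adjusted p = 4.78e-07), with 3 features increasing more, against 21.3% of features called higher in LW. The spread in these fits also draws on the mid libraries, whose values chose the gene. With only the libraries of the compared phenotypes, limma adjusted p was 5.32e-05 for LQ minus EQ and 0.000678 for LW minus EW. Over both castes, the late libraries exceeded the early libraries by 8.84 (exact two-sided permutation test within caste, p = 0.005, 6 libraries against 6, higher in 6 of 6 late libraries). This test treats libraries as independent, although late and early libraries share colonies. With 5 pairs of the same number, the mean difference was 8.78 and the exact sign-flip test gave p = 0.0625, the smallest it can give.

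The total change did not differ measurably between castes. The early to late change in queen-destined larvae minus that in worker-destined larvae was -0.14 (SE 0.85, 95% interval -1.97 to 1.69, limma adjusted p = 0.957). In this comparison 0.553% of features were called. What differed in the deposited values was how much of the change had occurred by the mid stage. As a description, 10.4% of the early to late change on the log2(abundance + 20) scale had occurred in MQ and 69.4% in MW. The step between the early and the mid stage was 0.91 in queen-destined and 6.18 in worker-destined larvae. Between the mid and the late stage it was 7.86 in queen-destined and 2.73 in worker-destined larvae. On the linear scale MW2 and MW3 reached 15.9% and 13.6% of the mean of the late libraries.

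Libraries of the same colony could be compared directly. Among the 4 colonies sampled at all stages, the larger step on the log scale came after the mid stage in both queenless and before it in both queenright colonies. Early and late levels were alike in both castes, so the mid-stage values that chose the gene largely fix this order. The colony ratios are descriptions. In the queenless colony that gave EQ1, MQ1 and LQ1, abundance in MQ1 was 0.689 times that in EQ1, and LQ1 was 347 times MQ1. In the next, MQ2 was 2.35 times EQ2, and LQ2 was 1035 times MQ2. The queenless colony with the highest MQ library had the smallest later step, LQ4 being 111 times MQ4. Among queenright colonies, MW2 was 130 times EW2 and LW2 was 11.4 times MW2. In the other queenright colony sampled at each stage, MW3 was 81.3 times EW3 and LW3 was 9.30 times MW3. No mid library of the remaining queenright colony was analysed here, and its LW1 was 558 times EW1.

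The mid-stage libraries were also placed by the rest of their expression profile. For each library, the position of every feature differing by more than 2 on the log2 scale between early and late means was measured, with early set to 0% and late to 100%. P17/29C-like and the library's own values were left out. The median position over 473 features was 22.4%, 33.4% and 42.0% in MQ1, MQ2 and MQ4, and 25.8% and 27.4% in MW2 and MW3. By this measure the MW libraries lay within the range of the MQ libraries. Over the 257 features that increased with stage, it was 18.2%, 17.0% and 24.4% in the same MQ libraries, and 29.8% and 23.8% in MW2 and MW3. For increasing features, then, MW2 was above all MQ libraries and MW3 was just below MQ4. MQ4 was the most advanced MQ library on both measures and had the highest MQ abundance of P17/29C-like. The part of developmental position in the mid-stage difference was not tested.

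Of the late libraries, LW1 stood apart. Its median position was 61.1%, against 101% and 108% in LW2 and LW3, and the LQ libraries were at 107%, 108% and 113%. LW1 also had the lowest late abundance of P17/29C-like, 9570. Without LW1, LQ minus LW was -0.93 (limma adjusted p = 0.403) and LW minus EW was 9.54 (limma adjusted p = 2.01e-07). LQ1, the second lowest late library for P17/29C-like at 11295, was at 107% and did not stand apart in its profile.

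**Figure D3:**
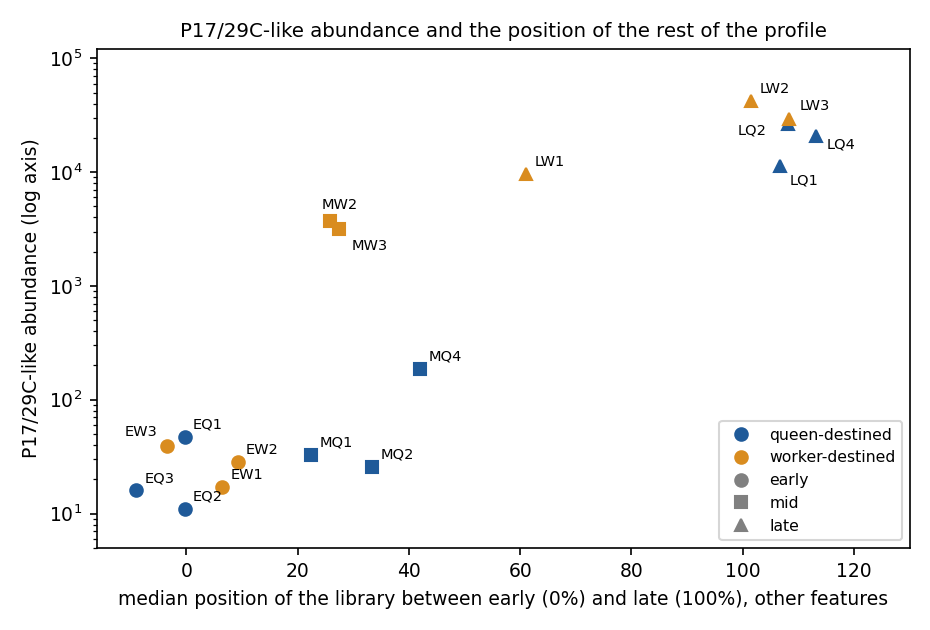
Abundance of P17/29C-like (log axis) against the median position of the other stage-dependent features between early (0%) and late (100%), 1 point per library. The MW libraries lie at 25.8% and 27.4% with abundances of 3694 and 3162, whereas MQ libraries between 22.4% and 42.0% have abundances of at most 188.

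Features whose abundance followed P17/29C-like most closely over the 17 libraries were found by Pearson's r on the log2(abundance + 20) scale. The 17 points share stages, colonies and normalisation, so r is given as a description. The 10 highest had r between 0.953 and 0.974. Over all features, 189 reached 0.9 and the median was 0.01. None of the 10 has a product name in the sources used here, and none lies on the same sequence as P17/29C-like. All 10 were called higher in LQ than in EQ and in LW than in EW, against 18.4% of all features called higher in the late stage of both castes. Likeness to a gene with this course fixes that direction. None of the 10 was called different between LQ and LW, where 4.55% of all features were called, so this count is near that of the table.

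The most similar feature, NC_015763.1_7460946_7538338 (r = 0.974), was a modest riser. Its mean abundance was 54.4 in EQ, 79.3 in EW, 78.8 in MQ, 169 in MW, 280 in LQ and 366 in LW. NC_015763.1_7526550_7530022, the eighth in order, lies wholly within it, so reads may be shared and the pair may not be independent.

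The second, NC_015777.1_4095027_4098619 (r = 0.965), came closest to P17/29C-like in the size of its increase. Its mean abundance was 644 in EQ, 688 in EW, 4407 in MQ, 15421 in MW, 214912 in LQ and 203751 in LW. LQ minus EQ was 8.44 and LW minus EW was 8.18 on the log2(abundance + 20) scale. It lies 5211 bp from hexamerin. At the mid stage it was already well above the early level in MQ as well as in MW.

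The fifth, NC_015776.1_2798518_2799950 (r = 0.956), had means of 333 in EQ, 234 in EW, 1124 in MQ, 3891 in MW, 41637 in LQ and 52412 in LW. The sixth and the seventh, NC_015773.1_10231842_10238223 and NC_015773.1_10248242_10252788, lie 10018 bp apart and were the 2 of the 10 with an offset fold change over 1 in MW (1.49 and 1.19). All 10 had MW ranges above MQ ranges, against 17.4% of all features, and likeness to a gene chosen for that gap favours this direction. As a description, MQ minus MW was between -2.04 and -0.37 for the 10, with a median of -1.12, where the median of all features was 0.04. A smaller offset fold change in MW than that of P17/29C-like is fixed by the rule that chose the gene.

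**Figure D4:**
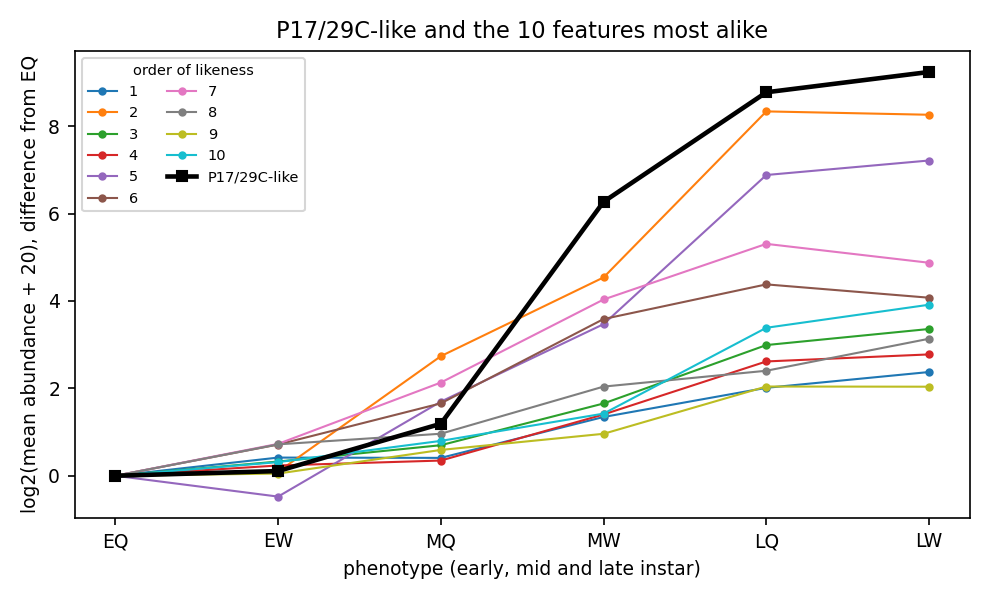
Log2(mean abundance + 20) of P17/29C-like (black) and of the 10 features most alike, numbered by order of likeness, as the difference from EQ for each phenotype. P17/29C-like is near its early level in MQ and high in MW, and MQ minus MW is -2.04 to -0.37 for the 10 others. The gene was chosen by its mid-stage values, so its larger step is no finding.

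The table holds 3 other features within 50 kb of P17/29C-like, and none followed its course. The nearest, 8989 bp before it, is LOC100646069, which encodes a neuropeptide Y receptor, a G protein-coupled receptor for peptides that act on feeding in many animals. Its abundance was at most 0.524 in every early and mid library. In late larvae it was 14.5, 21.1 and 4.34 in LQ1, LQ2 and LQ4, against 0.331, 1.17 and 1.10 in LW1, LW2 and LW3. All these values are near or below the offset, so the log2 scale understates their ratio. LQ minus LW was 0.64 (SE 0.12, limma adjusted p = 0.0115), and LQ minus EQ was 0.67 (SE 0.12, limma adjusted p = 0.000558). All phenotypes share 1 spread and the early and mid libraries barely varied, so these SEs can be too small for LQ.

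NC_015772.1_3772353_3775563, an unnamed feature nested within the span of the receptor gene, was higher in LQ by a wider margin. Its abundance was 203, 333 and 62.1 in LQ1, LQ2 and LQ4, against 0.455, 5.50 and 3.87 in LW1, LW2 and LW3. In early and mid libraries it did not exceed 0.524 and was listed at 0 in EQ2 and EW3. LQ minus LW was 3.01 (SE 0.35, limma adjusted p = 0.000407), against 3.21% of features called higher in LQ. With the libraries of LQ and LW alone in the model, the adjusted p was 0.091 in limma, and the difference was 5.50 with an offset of 1 in place of 20. Reads over the nested feature may also have been counted for the receptor gene, so these are not separate observations.

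The feature on the other side, NC_015772.1_3852306_3886389, begins 29225 bp after P17/29C-like. Its abundance was 17.8, 17.0 and 17.0 in the LQ libraries, against 46.2, 38.9 and 44.5 in the EQ libraries, a fall of 0.76 on the log2(abundance + 20) scale (SE 0.19, limma adjusted p = 0.00371). LW minus EW was -0.18 (limma adjusted p = 0.463). Of the 3 features around P17/29C-like, 2 were thus higher in LQ than in EQ (29.8% of all features) and 1 lower (24.6% of all features). None was called between LW and EW, where 21.3% of all features were higher in LW and 20.3% higher in EW. With 3 features, these counts are not distinct from the table.

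**Figure D5:**
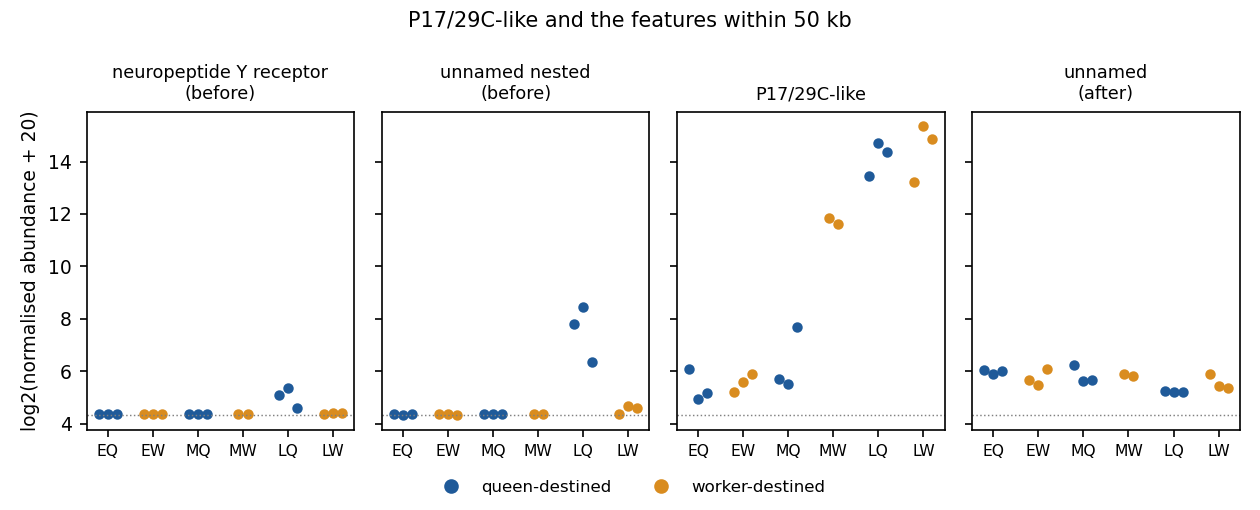
Log2(normalised abundance + 20) of P17/29C-like and the 3 other features within 50 kb, 1 point per library in each of the 6 phenotypes; the dotted line marks an abundance of 0. The receptor gene and the nested feature are above the line mainly in LQ, and P17/29C-like is high in MW, LQ and LW.

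The 5 larval products whose names could be read did not share the course of P17/29C-like, and other larval products were not examined. The 5 were hexamerin, a storage protein of the fat body, cuticle protein 2-like, cuticle collagen 2C-like, mucin-3A and endochitinase, an enzyme that degrades chitin. Names were readable mainly for features that are higher in EQ, so the falls in queen-destined larvae are not independent of how the list arose. All 5 fell in LQ relative to EQ, with a median of -0.82 (all features 0.03), in a comparison with 24.6% of features higher in EQ. Mean abundances of cuticle protein 2-like (10.4 in EQ, 0 in LQ) and mucin-3A (14.7 in EQ, 4.71 in LQ) lay below the offset of 20. The log2 scale understates their falls, so the median mixes features of unlike abundance. In LW relative to EW, 1 of the 5 fell, against 20.3% of features higher in EW, and the median was -0.17. None of the 5 was called between the castes in early or late larvae, comparisons in which 0.00675% and 4.55% of all features were called. The one that fell in both castes was cuticle collagen 2C-like, with LQ minus EQ of -4.85 (limma adjusted p = 4.3e-05) and LW minus EW of -2.38 (limma adjusted p = 0.01).

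Hexamerin ran opposite to P17/29C-like between the mid-stage castes. Its mean abundance was 8515 in MQ and 1157 in MW, and in late larvae it was 3638 in LQ and 4012 in LW. The mid-stage values of both genes are descriptions.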

How the data were processed

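Messenger RNA of pooled whole larvae was sequenced. Per the study's methods, the authors resampled reads to the smallest library (LW1), aligned them with PatMaN to Bter_1.0 with at most 1 mismatch and kept reads that map to several places. They removed short and weakly expressed features, divided by feature length and applied quantile normalisation. Normalised abundances of this kind are the deposited signal values. Feature length is the genomic span. The resampling gave the libraries equal read totals before alignment. Counts per feature were not available, so the error is the spread between libraries. The authors also left out MW1, MQ3 and LQ3, which were not analysed here. They removed MW1 for low similarity to its replicates, and MQ3 and LQ3 for low read counts.

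Samples were grouped by stage and caste from their labels. In R 4.3.3, limma 3.58.1 modelled log2(abundance + 20) over the 14817 features with 6 phenotype means and an intensity trend, with Benjamini-Hochberg adjustment over all features and a threshold of 0.05. The single gene was also tested by exact permutation. The model was tested on simulated data. Because all phenotypes share 1 spread, standard errors of features barely expressed in some phenotypes can be too small.

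P17/29C-like was matched to its table row as the highest offset fold change in MW and by 1 named neighbour. Gene symbols come from RefSeq (iyBomTerr1.2), used for names and gene order alone. The features named are this gene, all features within 50 kb, the 10 most alike by Pearson's r, 5 named larval products and the next 2 by offset fold change. The gene and the lists were chosen with earlier results of these data known.

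Within a caste, libraries of the same number came from the same colony according to the study's sample table, which pairs stages. Of 14 such pairs, 10 had a correlation of deviations over 0.1 (range -0.24 to 0.49). Alternatives were offsets of 1 and 50, a minimum mean of 100, annotated features only, no trend, library weights, median centring, replicate and colony blocks, the compared groups alone and leaving out each library.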

Additional observations from a re-analysis of the deposited data

Results flagged for a closer look

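Among the 21 features named, the early to late change differed between castes in limma for 1, NC_015772.1_3772353_3775563, the unnamed feature nested in the neuropeptide Y receptor gene near P17/29C-like. Of all features, 0.553% were called in this comparison. The change in queen-destined larvae minus that in worker-destined larvae was 3.01 on the log2(abundance + 20) scale (SE 0.49, limma adjusted p = 0.0187). Its abundance in the late libraries was 62.1 to 333 in LQ and 0.455 to 5.50 in LW, and it did not exceed 0.524 in any early library. The difference therefore repeats LQ minus LW, which was also 3.01. Because all phenotypes share 1 spread, the SE can be too small. With the libraries of LQ and LW alone, LQ minus LW had an adjusted p of 0.091 in limma. The caste difference in the change of this feature was not run under the alternatives.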

How the results depend on the processing

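The early to late increases of P17/29C-like kept their direction and call under every alternative run in limma: LQ minus EQ was 7.98 to 9.75 and LW minus EW 8.20 to 9.82. Leaving out 1 library at a time gave 8.51 to 9.13 for LQ minus EQ, 8.47 to 9.54 for LW minus EW, 8.62 to 9.16 for both castes together, and -6.13 to -5.04 for MQ minus MW. It gave -0.51 to 0.055 for EQ minus EW, -0.93 to 0.14 for LQ minus LW, and -0.76 to 0.30 for the caste difference in the change. None of these last 3 was called under any alternative, and their signs depended on single libraries: EQ minus EW was 0.055 without EQ2, and LQ minus LW turned positive without LQ1 (0.05) or LW2 (0.14). The caste difference in the change was 0.20 without EQ1, 0.04 without EW1, 0.21 without LQ1, 0.30 without LW2, 0.05 without LW3 and 0.070 with an offset of 1. The replicate block used the library number alone, so across castes it joined libraries of different colonies. With it, LQ minus LW was -0.64 and LQ minus EQ 8.44. With the colony block, they were -0.32 and 8.69. Pairing by number within caste changed 1 call, that of the paired sign-flip test of both castes (8.78, exact p = 0.0625). Library weights moved LQ minus LW to -1.16 (limma adjusted p = 0.113) and the caste difference in the change to -1.12 (limma adjusted p = 0.271). LQ minus LW of the nested neighbour was 2.54 to 3.60 without 1 library, 5.50 with an offset of 1 and 2.06 with an offset of 50.

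Counts of features called moved more. Across the other alternatives, with the values as reported in brackets, they were 0 to 32 for EQ minus EW (1), 27 to 2680 for LQ minus LW (674), 19 to 1272 for the caste difference in the change (82), 4685 to 8822 for LQ minus EQ (8053) and 3807 to 9540 for LW minus EW (6173). The highest of the counts for LQ minus LW, LW minus EW and the caste difference in the change came with library weights. Without 1 library, those for LQ minus LW were 279 to 909, the lowest being 279 without LQ1, 399 without LW2 and 432 without LQ4. For EQ minus EW, limma gave 788 of 14817 features at an unadjusted p under 0.05, close to the share that this threshold passes without any caste difference.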
